A study of Mus musculus with 9 samples.

Results

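Among 500-bp windows of the mouse genome that are rich in CpG dinucleotides, a minority sat between the unmethylated state of most CpG islands and the full methylation of the bulk genome. These were 2404 of 21335 CpG-dense bins, out of 3101519 bins of the analysed chromosomes that held a CpG in any dataset. Members were chosen from J1 embryonic stem cells (ESCs) by WT values alone: a mean methylation level from 20% to under 70%, with at least 25 CpGs of 3 or more reads in each of the WT, *Dnmt3a* KO and *Dnmt3b* KO datasets. Of the other CpG-dense bins, 16191 were below 20% in WT and 2740 were at 70% or more. The cells were mouse ESCs of strain 129S4/SvJae, cultured on gelatin with serum and LIF, and either wild type, knocked out for *Dnmt3a* or knocked out for *Dnmt3b*. Methylation was read by whole genome bisulfite sequencing (WGBS) in 3 libraries per genotype, 9 in all. The deposited tables hold 1 pooled value per CpG and genotype, summed by the authors over its 3 libraries, so every value below is pooled, with no spread between replicates, and no test of a difference between genotypes could be made. Whether each knockout is a single clone is not given in the sources used here, and a difference between the lines and an effect of the deletion cannot be told apart.

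DNMT3A and DNMT3B are the enzymes that place methyl groups on previously unmethylated CpGs, whereas DNMT1 copies existing methylation at replication. Cells described below as without DNMT3A or without DNMT3B are the *Dnmt3a* KO and *Dnmt3b* KO cells. CpG-dense promoters are usually free of methylation, and well-known exceptions are imprinting control regions, which are methylated on only 1 parental copy, and promoters of germline genes, which are silenced by methylation outside the germline. Young retrotransposons also carry CpG-dense promoters, and their methylation keeps them silent. Bisulfite reads 5-methylcytosine and 5-hydroxymethylcytosine alike, so the level of a bin is the mean over its CpGs of the share of reads that resisted conversion, whichever of the 2 marks protected them.

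The sequences of 5 members of mostly unique sequence are given here because results described below turn on them. They are extremes, not typical members. *Commd1* had the smallest difference between the knockouts of the imprinted list, and *Tex14* and *Nkx2-5* had *Dnmt3a* KO furthest below *Dnmt3b* KO in the germline and developmental lists. *Daxx* had the lowest *Dnmt3b* KO level of the members named for extreme differences. *Airn* had the highest *Dnmt3a* KO level relative to WT of the named members after a bin of *Impact*. The levels of these *Airn* and *Impact* bins are means over CpGs that differ between genotypes, as described below. No member of repeated sequence, the larger kind with 1322 of 2404, is among the 5 members, nor is the *Nnat* bin described below. The sequences are from the plus strand of mm9, 300 bases each, with every CpG in capitals. The first (chr11:22872075-22872374) lies within *Commd1*, whose intron holds the imprinted gene *Zrsr1*. The second (chr11:87218673-87218972) is near the start of *Tex14*, a gene of germ cell intercellular bridges. Of the 31-base words of its bin, 11.5% occurred more than once in the mm9 genome. The third (chr17:26981103-26981402) lies upstream of *Nkx2-5*, a transcription factor of heart development. The fourth (chr17:34048510-34048809) is in an exon of *Daxx*, which encodes a histone chaperone. The fifth (chr17:12934598-12934897) is near the start of *Airn*, the non-coding RNA that silences the paternal *Igf2r* copy. Its bin lies 237 bases from that start.
Commd1: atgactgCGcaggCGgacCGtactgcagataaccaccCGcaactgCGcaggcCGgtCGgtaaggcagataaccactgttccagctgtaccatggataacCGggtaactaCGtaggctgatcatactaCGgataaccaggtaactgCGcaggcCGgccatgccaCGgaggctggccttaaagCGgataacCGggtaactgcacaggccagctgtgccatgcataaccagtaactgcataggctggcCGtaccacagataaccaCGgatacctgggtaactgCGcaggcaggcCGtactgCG
Tex14: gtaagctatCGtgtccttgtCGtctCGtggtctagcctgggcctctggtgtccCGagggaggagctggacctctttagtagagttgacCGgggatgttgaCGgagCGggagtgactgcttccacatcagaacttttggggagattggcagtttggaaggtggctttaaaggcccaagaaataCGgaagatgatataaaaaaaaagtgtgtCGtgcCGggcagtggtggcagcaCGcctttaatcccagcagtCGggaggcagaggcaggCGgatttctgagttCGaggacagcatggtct
Nkx2-5: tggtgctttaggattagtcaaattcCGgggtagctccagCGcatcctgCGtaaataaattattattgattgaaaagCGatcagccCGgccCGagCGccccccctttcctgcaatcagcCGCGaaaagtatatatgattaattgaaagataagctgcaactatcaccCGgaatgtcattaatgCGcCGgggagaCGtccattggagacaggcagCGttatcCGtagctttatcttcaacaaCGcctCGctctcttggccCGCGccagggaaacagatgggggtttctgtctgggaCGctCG
Daxx: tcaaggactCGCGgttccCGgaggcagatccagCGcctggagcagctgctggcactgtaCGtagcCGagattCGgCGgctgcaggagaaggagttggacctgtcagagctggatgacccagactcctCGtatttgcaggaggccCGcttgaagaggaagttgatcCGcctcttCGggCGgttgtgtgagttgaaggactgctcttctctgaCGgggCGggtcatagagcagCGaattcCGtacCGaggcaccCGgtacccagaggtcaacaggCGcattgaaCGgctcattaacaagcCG
Airn: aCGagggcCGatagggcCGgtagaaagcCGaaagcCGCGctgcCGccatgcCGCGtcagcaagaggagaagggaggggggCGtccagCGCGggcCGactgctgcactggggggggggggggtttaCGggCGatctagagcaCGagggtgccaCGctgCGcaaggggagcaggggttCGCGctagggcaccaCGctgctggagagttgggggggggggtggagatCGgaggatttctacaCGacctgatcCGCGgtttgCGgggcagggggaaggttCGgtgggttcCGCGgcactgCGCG

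The 20 CpGs printed for *Commd1* had mean levels of 43.6% in WT, 50.4% without DNMT3A and 39.5% without DNMT3B. In WT their levels ran from 34.7% to 66.7%, so the intermediate mean was made of intermediate CpGs. The 14 CpGs of the *Tex14* sequence had mean levels of 66.5%, 2.43% and 54.8% in the same order, and in *Dnmt3a* KO the highest of them was 10.53%. Over the 21 CpGs of the *Nkx2-5* sequence the means were 53.6%, 16.9% and 54.7%, that is, lower than WT without DNMT3A and close to it without DNMT3B. The 22 CpGs of the *Daxx* sequence were low in both knockouts, with means of 57.7% in WT, 3.99% without DNMT3A and 2.02% without DNMT3B. At *Airn*, 27 of the 31 printed CpGs had enough reads in WT, 28 without DNMT3A and 23 without DNMT3B, so the means of 34.6%, 45.3% and 22.9% are not over the same CpGs.

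The deletions were visible in the data. A run of 30 CpGs in *Dnmt3b* (chr2:153502553-153504281), covered by 944 WT reads, had no read in *Dnmt3b* KO, and a run of 12 CpGs in *Dnmt3a* (chr12:3902401-3902801), covered by 377 WT reads, had none in *Dnmt3a* KO. Over the members, the median depth per CpG was 20.9 reads in WT, 18.7 without DNMT3A and 21.7 without DNMT3B. In 151 members the depth in at least 1 dataset was more than 3 times the median of all CpG-dense bins, and 140 of these lay in repeated sequence.

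Both knockouts were lower than WT across the members, and *Dnmt3a* KO was lower than *Dnmt3b* KO. The median level was 44.0% in WT, 21.0% without DNMT3A and 25.4% without DNMT3B. The median difference from WT was -21.9 percentage points without DNMT3A and -17.1 points without DNMT3B. In *Dnmt3a* KO, 1396 members (58.1%) were lower than WT by over 20 points, beside 12.1% of all CpG-dense bins and 43.2% of those at 70% or more in WT. In *Dnmt3b* KO the count was 893 (37.1%), beside 6.77% of all CpG-dense bins and 20.1% of those at 70% or more. Since WT values chose the members, and a bin under 20% in WT cannot fall by 20 points, nothing is read from these counts against the background. Between the knockouts, whose levels the choice did not use, *Dnmt3a* KO was lower by over 20 points in 240 members (9.98%). It was higher by over 20 points in 7 (0.291%). Over all CpG-dense bins these shares were 3.92% and 0.0469%, but bins under 20% in WT held 0 of these calls. In the bins at 70% or more in WT they were 21.8% and 0.109%, so the first was higher there than in members. The median of the difference between the knockouts was -5.82 points over members and -11.9 points over the bins at 70% or more in WT.

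The members were not 1 population. A bin was called repeated here when at least 50% of its 31-base words occurred more than once in the mm9 genome, and unique otherwise; this division was made after the values had been seen. By it, 1322 members (55.0%) were repeated and 1082 were unique. The unique members had median levels of 34.7% in WT, 7.31% without DNMT3A and 20.3% without DNMT3B. The repeated members had 48.3%, 30.2% and 28.6%. *Dnmt3a* KO thus retained a median of 21.9% of the WT level in unique members and 60.7% in repeated members, whereas *Dnmt3b* KO retained 58.5% and 60.0%. The level in *Dnmt3a* KO was below that in *Dnmt3b* KO in 1030 unique members (95.2%) and in 652 repeated members (49.3%), beside 65.6% of all CpG-dense bins. In unique bins at 70% or more in WT the share was 99.3%, so this order was not particular to unique members. In repeated bins at 70% or more in WT the share was 91.3%, so near-equal knockouts were not a property of repeated sequence in general. A level under 10% was reached by 673 unique members without DNMT3A and by 131 without DNMT3B, and by 79 and 5 repeated members. Of all CpG-dense bins, most of which were already under 10% in WT (70.7%), 79.4% were under 10% without DNMT3A and 75.3% without DNMT3B.

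**Figure D1:**
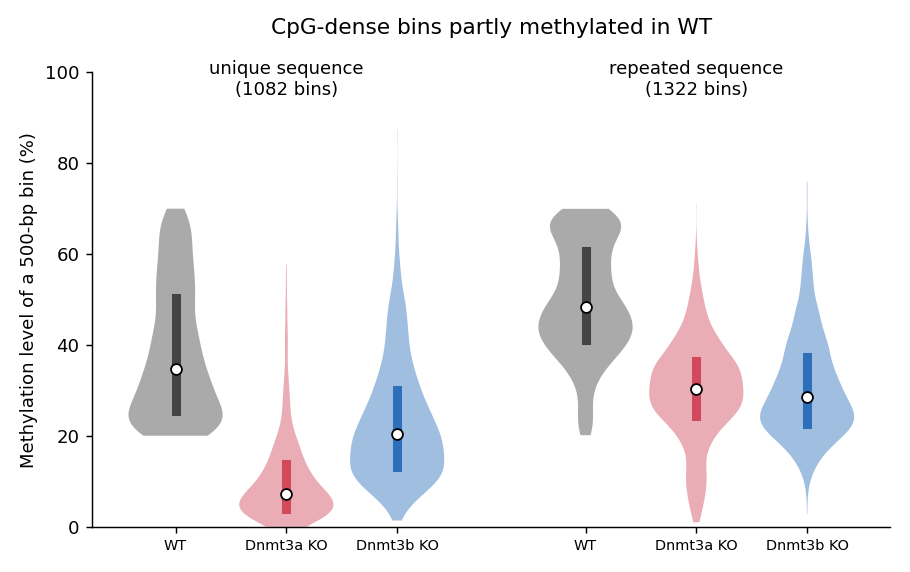
Methylation level (%) of each member bin by genotype, as violins with the interquartile range (bar) and the median (white point), for 1082 bins of unique and 1322 bins of repeated sequence. In unique bins the *Dnmt3a* KO median of 7.31% lies under the *Dnmt3b* KO median of 20.3%, and in repeated bins both are near 30% (30.2% and 28.6%); the WT range is set by the choice of members.

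The same division was present at matched WT level. Among members at 40% to under 50% in WT, the 157 unique bins had medians of 10.4% without DNMT3A and 26.9% without DNMT3B, and the 442 repeated bins had 27.6% and 25.2%. Among those at 60% to under 70%, the 128 unique bins had 18.03% and 41.7%, and the 345 repeated bins had 39.8% and 40.9%. The exception was the lowest class, from 20% to under 30% in WT, in which the 77 repeated bins had 8.45% without DNMT3A and 15.7% without DNMT3B, with *Dnmt3a* KO the lower in 84.4% of them. In this class the 407 unique bins had 4.42% and 13.1%. Repeated bins were not matched for family of shared sequence, described below. Over all their bins, the WT interquartile range was 40.4% to 51.4% in family 1 and 26.0% to 39.6% in family 9. WT level and family thus cannot be told apart among the repeated bins. In every class of WT level the medians of unique and repeated bins lay closer together in *Dnmt3b* KO than in *Dnmt3a* KO.

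**Figure D2:**
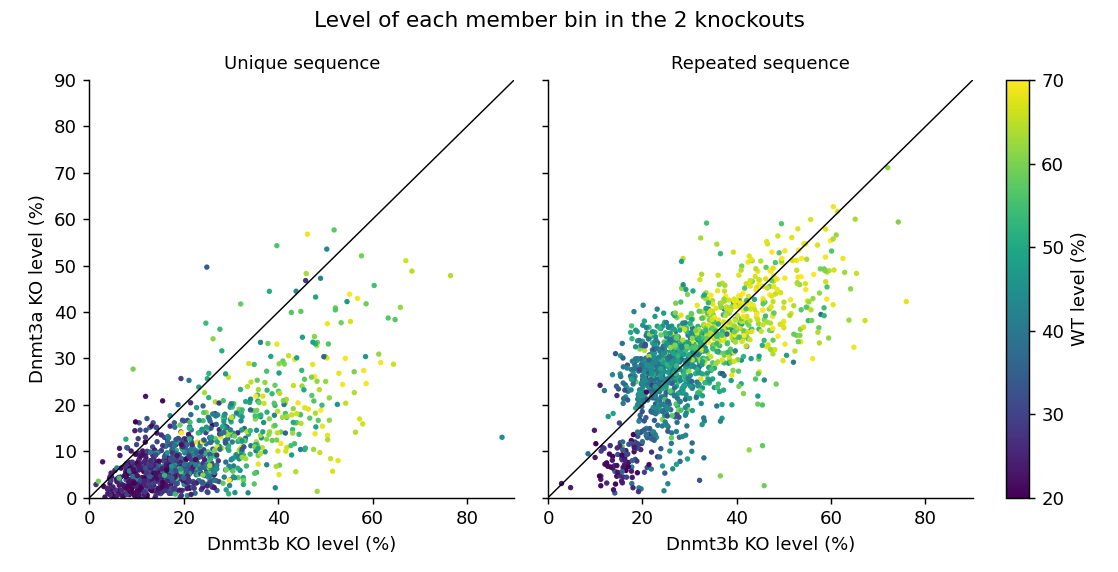
Level of each member bin in *Dnmt3b* KO (x axis, %) against *Dnmt3a* KO (y axis, %), coloured by the WT level (%), with the line of equal levels. Of the unique bins 95.2% lie below the line, and of the repeated bins 49.3%; the point at the far right of the left panel is the *Nnat* bin.

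In the CpG-dense bins at 70% or more in WT, the share of the WT level that remained was higher than in members in both knockouts. Without DNMT3A it was 46.7% in their 551 unique bins, beside 21.9% in unique members, and 82.8% in their 2189 repeated bins, beside 60.7% in repeated members. Without DNMT3B it was 83.2%, beside 58.5%, and 95.6%, beside 60.0%. The WT level by which these shares are divided is also what separates the classes, so they are a description and nothing is read from their difference. Members were selected on the WT value itself, so its counting error enters their difference from WT. With plus-strand WT reads choosing the members and minus-strand reads giving the WT level, 1663 bins were members. The median difference from WT was then -24.7 points without DNMT3A and -15.3 points without DNMT3B. The median between the knockouts, which uses no WT level, also moved, from -5.82 to -8.42 points. The set of bins thus differed as well, so the effect of counting error alone cannot be read from this.

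Most repeated members were tandem arrays. Comparing each bin with itself at shifts from 100 to under 300 bases, 999 of the 1322 repeated members (75.6%) matched at 70% or more of bases, and no unique member did. Words that occurred again within the same bin also counted as repeated, so the division in part sets this contrast. The most frequent unit lengths were 212 bases in 488 of these, 208 in 202, 214 in 155 and 206 in 61. Tandem units of similar kind are known from the promoters of young L1 retrotransposons of the mouse; no repeat annotation was used here, and the identity of the arrays was not tested. The median copy number of the 31-base words of a bin was 1796 in the median repeated member. How reads that match many places were assigned to 1 of them is not given in the sources used here, so the level of such a bin may be an average over copies, and bins of 1 family are not separate measurements.

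Bins that shared sequence were grouped into families by 31-base words in common with a seed bin, using CpG-dense bins of every WT level. Family 1, with a unit of 212 bases in 465 of its 658 bins, held 647 members and only 11 bins outside the WT range. Its members had medians of 45.1% in WT, 29.2% without DNMT3A and 26.4% without DNMT3B. Family 2, with a unit of 208 bases in 458 of its 647 bins, spanned the upper limit, with 256 members and 391 bins at 70% or more. Over all its bins the medians were 71.6%, 44.9% and 47.0%, so that *Dnmt3b* KO was well below WT also where the limit on WT played no part. Family 5, with a unit of 206 bases in 61 bins, held 156 members and 107 fuller bins, with medians of 63.2%, 39.4% and 35.0% over all 263.

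Not every tandem family gave near-equal knockouts. Family 9, with a unit of 214 bases in 65 of its 73 bins, had medians of 34.2% in WT, 13.4% without DNMT3A and 21.8% without DNMT3B over all of them, and *Dnmt3a* KO was the lower in 93.2%, against 40.6% in family 1. Family 10, with no tandem unit, had 57.8%, 23.7% and 37.5% over 53 bins, and was also lower in *Dnmt3a* KO in 92.5%. Family 3, with no tandem unit and 1 member among its 584 bins, was nearly full in WT and had 95.5%, 81.3% and 92.2%. Families 1, 2, 5 and 9 together held 1128 of the 1322 repeated members, 63 were in other families and 131 in none.

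**Figure D3:**
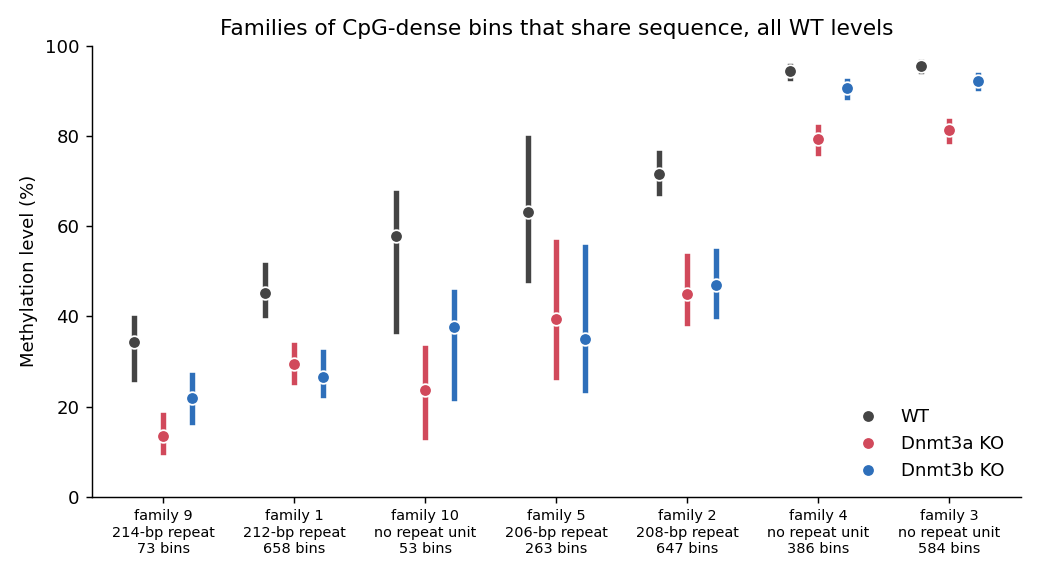
Median (point) and interquartile range (bar) of the methylation level (%) in each genotype for 7 families of CpG-dense bins that share sequence, over bins of every WT level. The 2 knockouts lie near each other in families 1, 2 and 5 (for family 1, 29.5% and 26.6%), whereas *Dnmt3a* KO is the lower in families 9, 10, 4 and 3.

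The surroundings of the members were highly methylated in WT, and here the knockouts differed around unique and repeated members alike. At 5 kb upstream, the median level around unique members was 90.2% in WT, 48.5% without DNMT3A and 82.9% without DNMT3B. Around repeated members it was 91.4%, 58.6% and 84.5%. In the adjacent bins, 500 bases downstream, the medians were 65.2%, 19.4% and 45.1% around unique members and 67.3%, 40.5% and 47.3% around repeated ones. The dip of WT at the centre follows from the choice of members. Around repeated members *Dnmt3b* KO was near the WT level outside and near the *Dnmt3a* KO level inside.

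**Figure D4:**
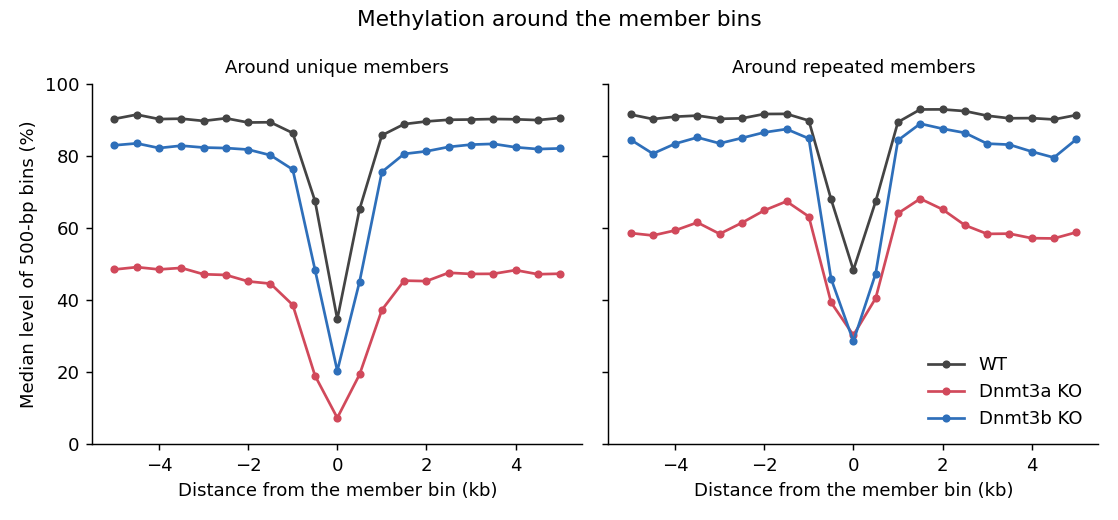
Median methylation level (%) of 500-bp bins within 5 kb of the members, by genotype, around unique (left) and repeated members (right). *Dnmt3b* KO runs close under WT away from the members and meets *Dnmt3a* KO at the centre only in the right panel (28.6% and 30.2%).

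Unevenness within a bin also separated the kinds. A bin was called evenly intermediate when at least 75% of its CpGs had WT levels from 20% to under 80%, which held for 992 repeated members (75.04%) and 180 unique members (16.6%). This share moves with the WT mean, which differed between the kinds: at matched WT level it was 90.3% of repeated and 35.0% of unique members from 40% to under 50%, and 9.09% and 0.491% from 20% to under 30%. In WT the median SD over the CpGs of a bin was 17.1 points in repeated and 24.2 points in unique members. Of the 1014 unique members with both neighbouring bins measured, 223 (22.0%) lay between a bin under 20% and a bin at 70% or more, and 343 (33.8%) touched a bin under 20%. Of 1076 such repeated members, 10 lay between a low and a high bin and 36 touched a low one. Unique members on an edge between a low and a high bin had medians of 28.2% in WT, 6.04% without DNMT3A and 17.5% without DNMT3B. The 154 unique members with high bins on both sides had 51.9%, 12.3% and 29.6%.

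By position, 384 members (16.0%) were within 500 bases of a transcription start, compared with 81.6% of the CpG-dense bins under 20% in WT and 4.16% of those at 70% or more. A further 461 overlapped an exon, 417 were intronic and 1142 intergenic. Repeated members made up 954 of the intergenic bins and 328 of the intronic ones, but 29 of those near a start. Among unique members the place made little difference to the order of the knockouts: the median difference of *Dnmt3a* KO from *Dnmt3b* KO was -10.02 points in 355 bins near a start, -12.8 in 450 exonic, -13.3 in 89 intronic and -13.4 in 188 intergenic bins. The median GC content was 60.8% in unique and 63.4% in repeated members. The motif TGCCGC, searched on both strands, was present in 31.6% of unique and 4.77% of repeated members, beside 36.4% of all CpG-dense bins. CACGTG, the E-box core, was in 14.1% and 2.34%, beside 10.9%, and GCGGGAA in 9.15% and 3.48%, beside 12.8%.

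The members assembled into 2013 runs, of which 1697 were single bins. The longest run held 11 bins of family 2 (chr10:27540001-27545500), with mean levels of 65.1% in WT, 37.9% without DNMT3A and 31.5% without DNMT3B. Next came 3 runs of 5 bins, all of unique sequence. The run in the exons of *Plec* (chr15:76010001-76012500), the gene of the cytoskeletal linker plectin, had 40.9%, 10.8% and 21.0%. The run by *Gm17550* (chr2:25432501-25435000) had 41.3%, 11.9% and 24.7%, and that in *Gnas*, described below, stood apart with 57.7%, 42.4% and 53.4%. Of the 4 runs of 4 bins named by the rule, 3 belonged to families 1 and 5, among them one in an intron of *Gtsf1*, a factor of the piRNA pathway (chr15:103241001-103243000), with 42.2%, 27.0% and 25.6%. The fourth, in an intron of *Bptf*, which encodes a subunit of the NURF chromatin remodeller (chr11:106910001-106912000), was repeated but in no family, and had 43.0%, 3.84% and 23.5%. Its levels resembled those of unique members, nearly empty in *Dnmt3a* KO alone.

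Genes of the imprinted list, 32 genes of the analysed chromosomes, held or neighboured 27 members out of 78 CpG-dense bins, beside 2404 members of all 21335. Their median level was 49.0% in WT, 41.8% without DNMT3A and 45.8% without DNMT3B. By over 20 points, 6 (22.2%) were lower than WT without DNMT3A and 3 (11.1%) without DNMT3B. Of the 27 bins 1 was repeated, and over unique members these shares were 72.0% and 26.1%. They were 58.1% and 37.1% over all members, and 12.1% and 6.77% over all CpG-dense bins. The *Commd1* bin at chr11:22872001-22872500 had levels of 43.7% in WT, 44.5% without DNMT3A and 43.8% without DNMT3B. Its shares of methylated reads were 43.6% (95% Wilson interval 40.8% to 46.4%), 44.8% (42.2% to 47.5%) and 43.5% (40.9% to 46.2%) in the same order. These near-equal values are over 32 CpGs that did not move together: as given above, the 20 printed ones had 43.6%, 50.4% and 39.5%. In the adjacent *Commd1* bin (chr11:22872501-22873000) the shares were 46.9% (44.2% to 49.6%), 42.96% (40.5% to 45.4%) and 53.3% (50.7% to 56.002%). The means over both bins were 45.0%, 43.4% and 49.2%. The intervals count every CpG of a read as independent, which it is not, so they are narrower than the counting error and no difference is read from them.

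*Plagl1*, a zinc finger transcription factor of fetal growth, had a mean above WT in both knockouts in the bin at its start (chr10:12810501-12811000), with 43.2%, 53.6% and 50.3%. Of its 51 CpGs, 17 were lower than WT without DNMT3A and 28 without DNMT3B. The bins on both sides of it were below WT in both knockouts. *Grb10*, an adaptor that restrains growth factor signalling, had a run of 3 bins (chr11:11925501-11927000) with means of 56.8%, 48.3% and 49.1%, but the first bin was higher in both knockouts (42.6%, 47.3% and 49.0%) and the second lower (68.9%, 56.8% and 46.2%). At *Mcts2*, an imprinted retrogene, the level was 56.2% in WT, 54.3% without DNMT3A and 39.7% without DNMT3B. The 3 bins of *Impact*, a regulator of translation (chr18:13131501-13133000), averaged 41.6%, 39.3% and 35.6%. They moved in different directions singly: the third had 27.9%, 46.8% and 45.8%. Its means are over 38, 30 and 34 CpGs. Of the 27 CpGs with enough reads in all genotypes, 7 were lower than WT without DNMT3A and 5 without DNMT3B. *Airn* had a run of 2 bins (chr17:12934501-12935500) with 42.8%, 47.1% and 31.5%. The second of them had 51.2%, 44.5% and 38.1%. The first had 34.4%, 49.7% and 24.9%, at a depth of only 6.39 reads per CpG in WT, and these means are over 33, 37 and 29 CpGs. Of its 23 CpGs with enough reads in all genotypes, 15 were lower than WT without DNMT3A, although the mean was higher. These bins kept an intermediate level in both knockouts.

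The *Gnas* locus, which encodes the stimulatory G protein alpha subunit and several imprinted transcripts, held both kinds of bin. The 5-bin run at chr2:174124001-174126500 kept between 33.5% and 57.7% without DNMT3A and between 44.8% and 63.3% without DNMT3B. At *Nespas*, the antisense transcript of the locus, the bin at its start had 49.0%, 43.2% and 47.9%, and a second had 63.5%, 48.3% and 45.9%. The remaining bin of this stretch, by a *Gnas* start (chr2:174122501-174123000), had 48.2%, 34.6% and 45.1%. Further along, 3 bins by other *Gnas* starts (chr2:174152501-174153500 and chr2:174154001-174154500) were lower in WT and nearly empty in *Dnmt3a* KO: 34.7%, 5.02% and 21.2% in the first, 20.8%, 1.39% and 5.83% in the second, and 21.9%, 3.99% and 5.73% in the last. Of the listed genes with 1 member each, *Begain*, a synaptic protein gene, had 40.9%, 17.7% and 26.8%, and *Trappc9*, a gene of vesicle trafficking, had 62.1%, 41.0% and 65.9%. The *Sfmbt2* bin lay in repeated sequence of family 2 and had 66.4%, 46.1% and 42.0%.

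The *Nnat* bin, by the start of the gene of neuronatin, a membrane proteolipid of neurons (chr2:157386001-157386500), differed from WT in opposite directions in the knockouts. Its level was 44.8% in WT, 13.01% without DNMT3A and 87.5% without DNMT3B. All 35 of its CpGs were lower in *Dnmt3a* KO than in *Dnmt3b* KO, 32 were lower in *Dnmt3a* KO than in WT, and 0 were lower in *Dnmt3b* KO than in WT. The shares of methylated reads were 45.5% (95% Wilson interval 42.0% to 49.1%), 15.5% (12.7% to 18.9%) and 87.9% (85.4% to 90.01%). It was the only member higher than WT by over 20 points in *Dnmt3b* KO, 1 of 2404, beside 0.00469% of all CpG-dense bins. In *Dnmt3a* KO 0 members and 0% of all CpG-dense bins were higher by that much.

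**Figure D5:**
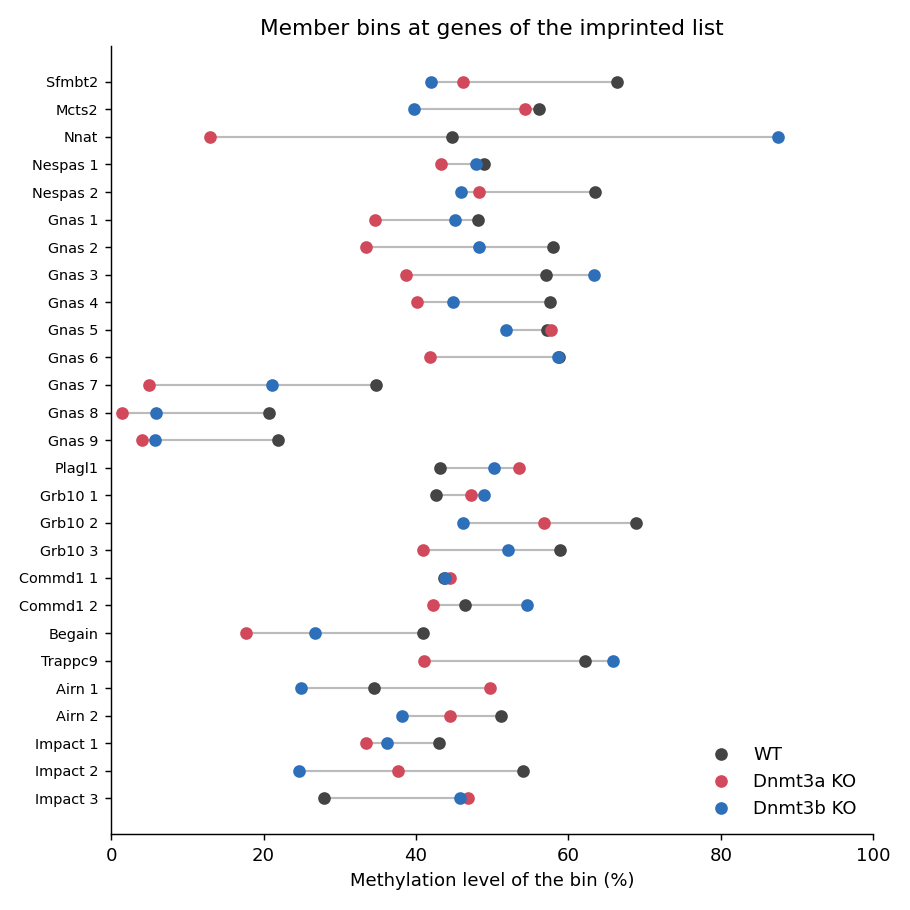
Methylation level (%) in each genotype of the 27 member bins in or near genes of the imprinted list, named by gene and numbered by position where a gene has several. Of the 27 bins, 16 lie between 30% and 65% in all genotypes, *Gnas* 7 to 9 are below 6% in *Dnmt3a* KO, and *Nnat* spans from 13.01% to 87.5%.

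Germline genes, 35 on the list, held or neighboured 18 members of 59 CpG-dense bins, and their levels were lower than WT in both knockouts, lowest in *Dnmt3a* KO. The median level was 39.4% in WT, 12.3% without DNMT3A and 24.4% without DNMT3B. *Dnmt3a* KO was lower than *Dnmt3b* KO in 15 of the 18 (83.3%, beside 69.97% of all members and 95.2% of unique members, with 4 of the 18 bins repeated), and 10 (55.6%) were lower than WT by over 20 points without DNMT3A and 5 (27.8%) without DNMT3B. Over all members these shares were 58.1% and 37.1%, over unique members 72.0% and 26.1%, and over all CpG-dense bins 12.1% and 6.77%. The *Tex14* bin (chr11:87218501-87219000) had 46.2% in WT, 1.10% without DNMT3A and 30.8% without DNMT3B, and all 31 of its CpGs were lower in *Dnmt3a* KO than in WT. The longest run, 3 repeated bins by *Gm20481* and *Hspa1a* (chr17:35107001-35108500), had 27.4%, 7.10% and 19.5%. A bin counts for a list if a listed gene starts within 10 kb or holds it. The nearest gene, by which the bin is named, need not be a listed one. The run by *1700040D17Rik* and *Tdrkh*, the latter a Tudor protein of the piRNA pathway (chr3:94216501-94217500), had 26.0%, 9.20% and 11.97%.

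*Ddx4*, which encodes the germ cell RNA helicase VASA, had 32.6%, 18.1% and 27.2% over 2 bins (chr13:113442001-113443000), at low depths of 8.67 reads per CpG in WT and 6.31 without DNMT3A, beside 17.1 without DNMT3B. *Boll*, an RNA-binding protein gene of meiosis, had 23.6%, 6.77% and 9.44% (chr1:55419501-55420000). The other single bins were not picked by run length and are given as examples: *Sycp1*, of the synaptonemal complex, had 67.3%, 20.5% and 33.9%, and *Mael*, of the piRNA pathway, had 46.3%, 8.53% and 22.7%.

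Developmental transcription factor genes, 201 on the list, held or neighboured 70 members of 903 CpG-dense bins (7.75%), beside 2404 members of all 21335. All 70 were of unique sequence. Their median level was 30.9% in WT, 6.78% without DNMT3A and 18.3% without DNMT3B. *Dnmt3a* KO was below *Dnmt3b* KO in all 70, and 54 were under 10% in *Dnmt3a* KO compared with 3 in *Dnmt3b* KO. Over all CpG-dense bins 65.6% had *Dnmt3a* KO below *Dnmt3b* KO, and 79.4% and 75.3% were under 10%, with 70.7% so already in WT. Over all unique members, 95.2% had *Dnmt3a* KO below *Dnmt3b* KO, and 62.2% and 12.1% were under 10%. Their WT median was higher, at 34.7%, and the share under 10% moves with the WT level. In *Dnmt3a* KO it was 90.9% of unique members from 20% to under 30% in WT, and 69.3% from 30% to under 40%. The shares under 10% are thus not compared at matched WT level. In *Dnmt3a* KO 49 (70%) were lower than WT by over 20 points, and in *Dnmt3b* KO 12 (17.1%). Over all unique members these shares were 72.0% and 26.1%, and over all CpG-dense bins 12.1% and 6.77%. *Hoxd12*, a gene of limb patterning, had a run of 2 bins (chr2:74513001-74514000) with 40.9%, 7.42% and 28.6%, and *Tbx4*, needed for the hindlimb, one (chr11:85703501-85704500) with 37.6%, 8.84% and 20.6%. The run of *Dbx2*, a homeobox gene of the neural tube (chr15:95484501-95485500), had 31.8%, 10.95% and 20.7%, and that by *1010001N08Rik* (chr18:11048001-11049000) had 27.2%, 2.93% and 16.3%. The *Nkx2-5* bin whose sequence is given above had 48.5%, 15.2% and 48.0%.

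The protocadherin clusters of chromosome 18, whose genes encode adhesion proteins of neurons, held 42 members of 79 CpG-dense bins (53.2%), with 24 genes on the list. On chromosome 18 as a whole 154 of 976 CpG-dense bins (15.8%) were members, and on all analysed chromosomes 2404 of 21335. Neighbouring genes of these clusters resemble each other, and 6 of the bins were repeated. The median level was 42.1% in WT, 9.70% without DNMT3A and 24.1% without DNMT3B, and *Dnmt3a* KO was the lower in 40 (95.2%), beside 95.2% of all unique members and 65.6% of all CpG-dense bins. The 3 bins by *Pcdhgc5* (chr18:37926001-37927500) had 52.5%, 7.17% and 32.7%, and the 2-bin runs labelled *Pcdha11* (chr18:37091001-37092000 and chr18:37113501-37114500) had 54.7%, 17.9% and 32.1%, and 33.6%, 5.77% and 12.4%. In the run labelled *Pcdha3* (chr18:37107001-37108000) the levels were 43.5%, 14.0% and 32.4%.

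Zinc finger genes, 185 on the list, held or neighboured 22 members of 258 CpG-dense bins, with medians of 46.7%, 9.61% and 20.7%. *Dnmt3a* KO was the lower in 21 (95.5%), beside 95.2% of all unique members and 65.6% of all CpG-dense bins, and 4 of the 22 were repeated. *Zfp334* (chr2:165205501-165206500) had 66.4%, 12.6% and 44.4%, and *Zfp64* (chr2:168751501-168752500) had 56.8%, 12.5% and 19.1%, so the knockouts were far apart at the first and closer at the second. The repeated pair by *Gm10524* (chr18:82863501-82864500) had 39.7%, 10.6% and 23.2%, and the tandem bin in *Zfp442* (chr2:150266501-150267000) had 27.2%, 27.8% and 21.1%. Histone genes, 66 on the list, had 4 members, with medians of 60.0%, 12.9% and 40.9%, among them the bin at the start of the testis H2B gene *Hist1h2ba* (chr13:24025501-24026000) with 69.9%, 18.8% and 49.1%. Of 20 CpG-dense bins at 8 genes of the DNA methylation machinery, 0 were members.

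The members furthest below WT in *Dnmt3a* KO were unique bins. Near *Gipc2*, a PDZ domain protein gene (chr3:151755501-151756000), the level was 69.7% in WT, 3.78% without DNMT3A and 29.6% without DNMT3B. The bin by *4930547E08Rik* had 68.6%, 4.97% and 40.2%, and that at the start of *Fam178b* had 67.2%, 5.68% and 51.5%. A pair of intergenic bins followed, with 62.8%, 1.35% and 48.3%, and 68.3%, 7.23% and 35.8%. The members furthest above WT in *Dnmt3a* KO were those of *Impact*, *Airn* and *Plagl1* given above. At *Impact* and *Airn* the means are over different CpGs in each genotype. Of the 23 CpGs that *Airn* had in all genotypes, 15 were lower than WT in *Dnmt3a* KO. Next came 2 repeated bins. An intergenic one had 61.5%, 71.1% and 72.0%, and one in *Cacnb2*, a calcium channel subunit gene, had 34.002%, 40.6% and 34.01%.

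The members furthest below WT in *Dnmt3b* KO were also unique bins, and each was below WT in *Dnmt3a* KO too. The *Daxx* bin (chr17:34048501-34049000) had 59.0% in WT, 3.54% without DNMT3A and 1.89% without DNMT3B, with 31 of 32 CpGs lower than WT in each knockout. *Nefm*, the gene of the medium neurofilament (chr14:68741501-68742000), was lower in *Dnmt3b* KO than in *Dnmt3a* KO: 60.0%, 27.7% and 9.25%. Its shares of methylated reads were 61.4% (95% Wilson interval 58.3% to 64.4%), 27.9% (25.4% to 30.6%) and 9.34% (7.52% to 11.6%). *Rbm14*, an RNA-binding coactivator gene, had 69.7%, 14.0% and 19.5%, *Spata5*, an AAA ATPase gene, had 57.6%, 0.949% and 9.08%, and an intergenic bin had 57.5%, 1.42% and 7.82%. The members furthest above WT in *Dnmt3b* KO, after *Nnat*, were at *Gm17667* (38.2%, 39.5% and 57.8%), *Impact*, *Cyp2c29*, a gene of drug metabolism (60.5%, 59.4% and 74.2%), and an intergenic bin (36.4%, 30.4% and 49.7%).

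Between the knockouts, the bins with the lower *Dnmt3a* KO level were led by *Nnat*, the intergenic bin of 1.35% in *Dnmt3a* KO, *Fam178b*, an intergenic bin with 68.1% in WT, 7.99% without DNMT3A and 52.7% without DNMT3B, and *Ak5*, an adenylate kinase gene (59.1%, 2.59% and 45.8%). The bins with the higher *Dnmt3a* KO level were led by *Stam*, an endosomal sorting gene (55.2%, 59.2% and 33.6%), and *Airn*. After these came 3 repeated bins: an intergenic one (63.5%, 56.0% and 32.4%), one in *Clca4* (65.004%, 51.5% and 28.6%) and one in *Ctnnd2*, the delta-catenin gene (48.5%, 50.9% and 28.3%), the last at a WT depth of 6 reads per CpG. Of these 5, 4 lay in repeated sequence, *Stam* included, and none of the first 5 but *Ak5* did.

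At the limits of the choice, the 3 members with the lowest WT level had 20.05%, 20.06% and 20.09%, with 1.25%, 4.30% and 1.66% in *Dnmt3a* KO and 10.6%, 11.1% and 13.1% in *Dnmt3b* KO. The 3 bins just under that limit had 19.977%, 19.982% and 19.995% in WT, 1.70%, 4.71% and 3.62% in *Dnmt3a* KO and 10.4%, 14.6% and 11.7% in *Dnmt3b* KO. At the upper limit, the 3 last members had 69.96%, 69.97% and 69.998% in WT, 42.9%, 43.7% and 26.1% in *Dnmt3a* KO and 45.5%, 47.0% and 47.7% in *Dnmt3b* KO. The 3 bins just above it had 70.01%, 70.02% and 70.03% in WT, 38.6%, 37.7% and 45.6% in *Dnmt3a* KO and 37.1%, 41.0% and 45.0% in *Dnmt3b* KO. The levels thus ran on across both limits.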

How the data were processed

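DNA of J1 ESCs (WT or with *Dnmt3a* or *Dnmt3b* knocked out) was bisulfite converted and sequenced (3 libraries per genotype, 9 in all). The authors aligned reads to mm9 with BSMAP at default parameters, used BSeQC to remove end-repair bases, clonal reads and overlapping mate segments, and merged libraries. The deposited tables give per CpG the read counts and the methylated fraction as the authors computed it. Chromosomes 1 to 3, 10 to 19 and chromosome 4 up to position 140865857, where the WT table used here ends in an incomplete row that was dropped, were analysed. In Python 3.11.15 with numpy 2.4.6, pandas 2.3.3, numba 0.67.0 and scipy 1.17.1, bin levels were means of CpG fractions of CpGs with 3 or more reads. The binning was tested on simulated data. Genes came from GENCODE M1 on mm9, with biotypes protein coding, lincRNA and processed transcript. A bin was named by the nearest gene start within 10 kb, else by a gene holding it. Repeats were 31-base words occurring more than once in mm9. Families shared at least 20 words with a seed bin and held at least 40 bins. Named were the 8 longest runs, every run at imprinted genes, up to 4 runs for other lists, the 5 extreme members of each comparison in each direction, and the 3 bins on each side of the limits. The members and lists were chosen with earlier results of these data known. With 1 pooled table per genotype there are no tests and no errors between replicates. Depth limits single bins: Wilson intervals cover counting error only, and understate it since CpGs of a read are not independent.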

Additional observations from a re-analysis of the deposited data

Results flagged for a closer look

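The bin by the start of *Nnat* drew attention because the pooled values of the 2 knockouts lay on opposite sides of WT. Relative to WT, its level was lower by 31.8 points in *Dnmt3a* KO (a difference of -31.8) and higher by 42.7 points in *Dnmt3b* KO. No other of the 2404 members passed 20 points in opposite directions. With 1 pooled value per genotype the difference between the knockouts was not tested, and the cause was not tested.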

How the results depend on the processing

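No paired analysis was possible because the 3 numbered libraries of each genotype were merged into 1 table before deposit; leaving out a library was not run for the same reason. Medians were compared with their 95% order-statistic interval, shares with their exact binomial interval and counts with a factor of 1.5. These intervals take each bin as a separate draw, which bins of 1 family are not, and hold no spread between replicates. They serve only to say how far a value moved. No median over all members changed sign.

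A minimum of 10 reads per CpG left 1197 members, a median of -16.6 points for *Dnmt3b* KO against WT and a *Dnmt3b* KO share of 34.5% lower by over 20 points. A minimum of 20 CpGs gave 4638 members, medians of -23.3 points for *Dnmt3a* KO against WT, -16.2 for *Dnmt3b* KO against WT and -8.54 between the knockouts, and shares of 64.04% without DNMT3A and 33.7% without DNMT3B. A minimum of 30 CpGs gave 1105 members, medians of -20.6 points for *Dnmt3a* KO against WT and -4.60 between the knockouts, and a *Dnmt3a* KO share of 53.1%. A WT range from 30% to under 60% gave 1447 members and medians of -18.0 points for *Dnmt3b* KO against WT and -4.63 between the knockouts. With WT strands split, 1663 members were left, with medians of -24.7 and -15.3 points against WT and -8.42 between the knockouts. The *Dnmt3a* KO share was then 62.7%. Limits of over 10 and over 30 points gave shares of 92.6% and 22.8% without DNMT3A, and of 80.5% and 8.15% without DNMT3B. Shares over all CpG-dense bins were not computed under these alternatives. The values show only how far the shares moved, and nothing is read from them about the members.

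Restricting to unique sequence, an alternative chosen after seeing the data, left 1082 members, with medians of -25.9, -14.3 and -11.8 points and shares of 72.0% and 26.1%. The near-zero median between the knockouts over repeated members (0.131 points) ran from -0.246 to 1.198 over 4 alternatives added after seeing the data, so its sign is not set. Of 58 values under the other alternatives, 34 stayed within their limits. Of 9 values for the shares near a start, on an edge and evenly intermediate, 4 moved: with a WT range from 30% to under 60% they went from 16.0% to 11.6%, from 11.1% to 7.69% and from 48.8% to 63.7%, and a minimum of 10 reads took the last to 54.6%. Depth limits what single bins show, and repeated bins rest on an unstated assignment of reads.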
